A study of Mus musculus with 16 samples.

Results

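Polyamine synthesis and turnover was followed through 9 genes of mouse liver, taken from the deposited table of transcript abundance by matching its Ensembl identifiers to the symbols Odc1, Oaz1, Oaz2, Azin1, Amd1, Srm, Sms, Sat1 and Smox. All 9 were found among 55487 genes in the table, and 7 of them had a mean of at least 1 TPM (reads per exon length, scaled to the same total in every library) and were tested with 11839 genes in all. Sms and Smox lay below that level. Of the 7 members tested, 0 passed an adjusted p of 0.05 in any of 5 comparisons. Among all genes tested, 2.72% passed for G108 on the standard protein diet, 1.22% for G108 on the high protein diet, and 0% in the rest. With such low shares, 0 of 7 does not set the members apart from other genes. Slc25a15, which carries ornithine into mitochondria, and Oat, which degrades it, were called higher with G108 on the standard protein diet.

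Putrescine, spermidine and spermine are small cations that bind nucleic acids and sustain translation and growth. Ornithine decarboxylase (Odc1) makes putrescine from ornithine, the amino acid that arginase releases in the urea cycle, so that polyamine synthesis draws on the same ornithine as ornithine transcarbamylase and ornithine aminotransferase. S-adenosylmethionine decarboxylase (Amd1) supplies the aminopropyl groups that spermidine synthase (Srm) and spermine synthase (Sms) add in turn, and Sat1 and Smox start the way back. Antizymes (Oaz1, Oaz2) bind ornithine decarboxylase and send it to the proteasome, and the antizyme inhibitor Azin1 takes antizyme out of action.

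The livers came from 16 male C57BL6/J mice made obese on a diet with 60 kcal% fat for 8 weeks from an age of 10 weeks, with 1 library per mouse and 4 mice per group. Mice then stayed on high fat, with the protein content of the diet standard (SP) or high (HP), and received daily subcutaneous vehicle or 2.5 nmol/kg of G108, a long-acting agonist of the glucagon receptor, for 22 days. The groups are called vehicle SP, G108 SP, vehicle HP and G108 HP here, and all mice were fasted for 4 h before the cull on day 25. For age, length of high-fat feeding and day of cull the study's methods differ from the sample records, whose values are given here. Between 27.8 and 45.03 M reads per library were assigned to genes. The share of TPM from major urinary protein (Mup) genes was 42.6 to 49.7% with vehicle on SP and 18.3 to 23.0% with G108 on SP. For this reason levels are given as scaled TPM, in which each library's TPM are divided by a factor that sets its typical gene equal to that of the others. Hepatocyte markers were abundant in every library, with 6 of 6 above a mean TPM of 1, whereas the most abundant adipocyte marker reached a mean of 0.0335 TPM and the most abundant skeletal muscle marker 0.00211 TPM. Of 4 markers of exocrine pancreas, 1 passed a mean TPM of 1, and none of the 4 cholangiocyte markers did.

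A pair of libraries stood apart and are named beside several of the results they touch, though not beside all. Vehicle SP mouse 4 had the lowest mean correlation with its group (r = 0.935), and G108 HP mouse 3 had the largest share of TPM from mitochondrial genes (37.3%). Summed hepatocyte markers were at 22940 scaled TPM in vehicle SP mouse 4, where the other mice of its group had 31980 to 34210. In the same library the summed blood cell markers were at 1562 scaled TPM, against 415.6 to 634.2 in the rest of the group. G108 HP mouse 3 had 25610 and 1214 scaled TPM for these lists.

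Transcript levels of the members spanned more than 2 orders of magnitude. TPM divide by exon length, so that genes can be set side by side, but only roughly. That length counts all annotated exons of a gene, whichever of them its transcripts hold. The share of 31-base sequences that also occur in other genes ran from 0% for Smox to 82.8% for Amd1. Oaz1 was the most abundant, at a mean of 108.5 scaled TPM over the 16 libraries, which placed it at rank 487 of the genes tested. Sat1 followed with 16.2 and Srm with 13.5 scaled TPM. Amd1 (8.22), Azin1 (8.15), Odc1 (7.82) and Oaz2 (7.45) formed a group whose order was not stable, since each exceeded the next in only 8 to 9 of 16 libraries. Sms at 0.663 and Smox at 0.512 scaled TPM were the lowest. Oaz1 exceeded Sat1, Srm exceeded Amd1 and Oaz2 exceeded Sms in 16 of 16 libraries, whereas Sat1 exceeded Srm in 12 and Sms exceeded Smox in 13. The members also differed in how much they varied between mice. The SD of log2(scaled TPM + 1) over the 16 libraries was 0.49 for Oaz1 and 0.41 for Odc1, above the values of 89.1% and 83.8% of the genes tested. For Oaz2 it was 0.094, above 4% of them.

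**Figure D1:**
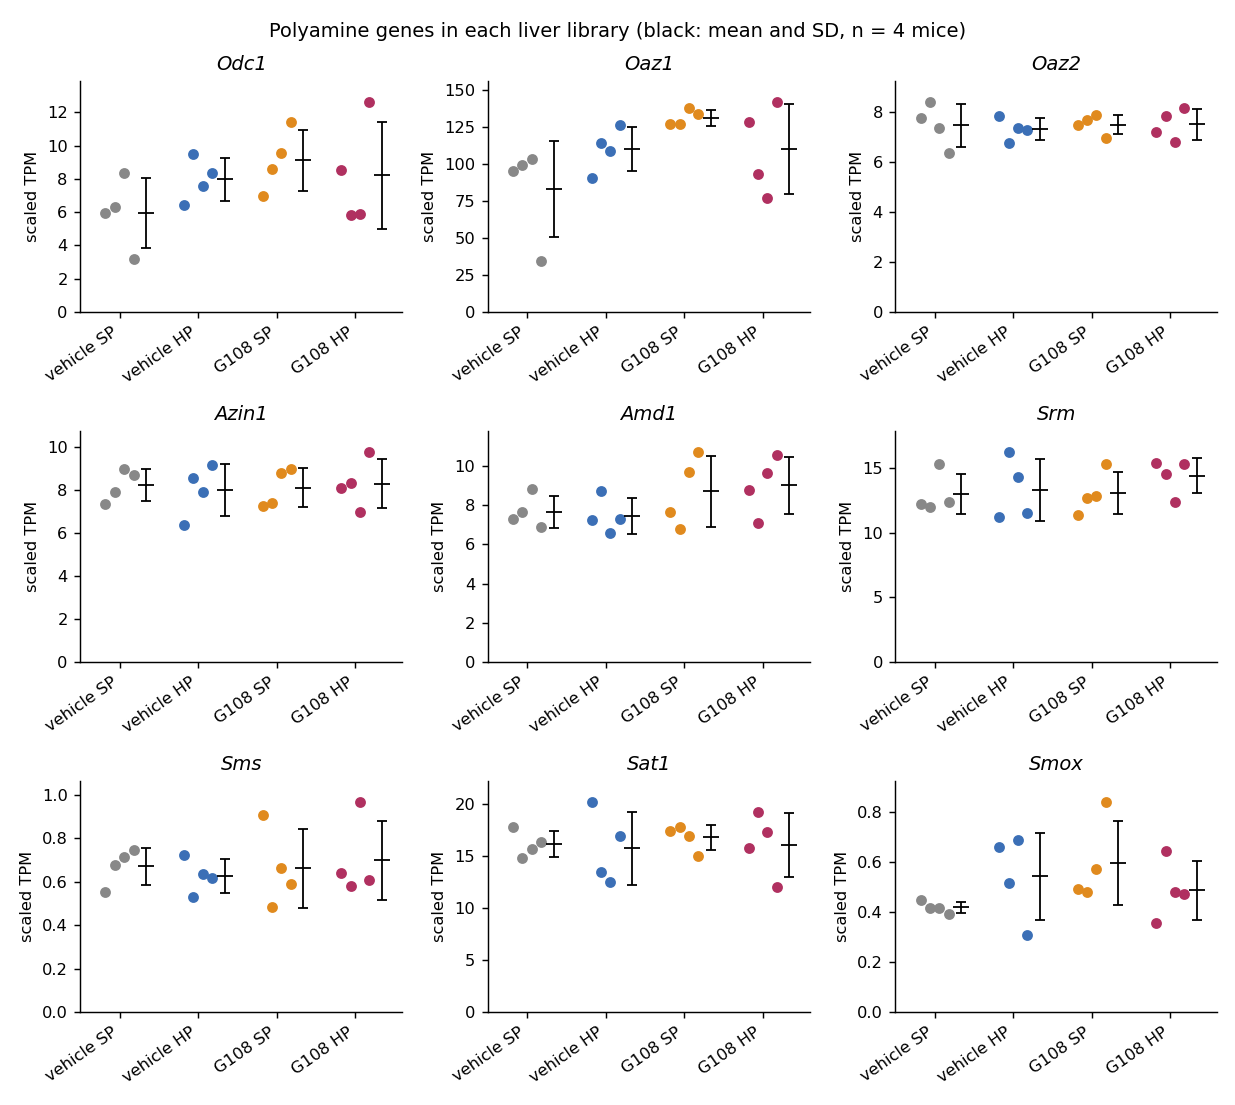
Scaled TPM of each of the 9 polyamine genes (y axis, from 0) in the 4 groups (x axis). Each point is 1 mouse and the black mark and bar are the group's mean and SD; Oaz1 of the G108 SP mice lay between 126.6 and 137.5, all above the vehicle SP mice, of which mouse 4 was at 34.2, and groups of the other tested members overlapped.

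Odc1 (ENSMUSG00000011179, chr12:17544794-17551505 on the plus strand of GRCm38) encodes the enzyme that commits ornithine to polyamines. With vehicle on SP it was at 5.96, 6.33, 8.33 and 3.16 scaled TPM in mice 1 to 4, and with G108 on SP at 6.999, 8.59, 9.54 and 11.4. The groups overlapped, because vehicle mouse 3 was higher than G108 mouse 1. The means were 5.95 ± 2.13 and 9.13 ± 1.84 scaled TPM (SD, n = 4 each), a log2 difference of 0.58 (SE 0.25, 95% confidence interval 0.05 to 1.12) with an adjusted p of 0.241. Without vehicle SP mouse 4 the difference was 0.36 with an adjusted p of 0.538. On HP, Odc1 was at 6.45, 9.52, 7.57 and 8.38 scaled TPM with vehicle and at 8.55, 5.81, 5.87 and 12.6 with G108. The G108 HP group enclosed the whole vehicle range, with mouse 4 highest of all 16 mice, and the log2 difference was -0.01 (SE 0.25, adjusted p = 0.99). Between 289 and 1364 reads stood behind each of these values, and 31.3% of the gene's sequences of 31 bases also occur in other genes, mainly pseudogenes such as Gm7993. How reads that match several genes were counted is not given in the sources used here.

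Antizyme 1 is made only when ribosomes skip 1 base at a TGA stop codon, a step that polyamines promote, so its mRNA level is not its protein level. The run at which the frame shifts is shown here, in capitals, with its surroundings in Oaz1 (chr10:80828280-80828309, plus strand) and Oaz2 (chr9:65686257-65686286, plus strand), to show which element these members share. Both were read from GENCODE transcripts of GRCm38.
Oaz1: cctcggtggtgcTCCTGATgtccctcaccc
Oaz2: cctctgtggtgcTCCTGATgcccctcaccc
The windows are identical in 28 of 30 bases, while the transcripts behaved differently across the libraries.

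Oaz1 (ENSMUSG00000035242, chr10:80826656-80829290, plus strand) had the largest difference of any member. With vehicle on SP it was at 95.05, 99.5, 103.2 and 34.2 scaled TPM in mice 1 to 4, and with G108 on SP at 126.6, 126.9, 137.5 and 133.4. Each G108 mouse was thus higher than each vehicle mouse. The lower end of the vehicle range was set by mouse 4 and the upper end by mouse 3. The means were 82.96 ± 32.7 and 131.1 ± 5.27 scaled TPM (SD, n = 4 each). The log2 difference was 0.78 (SE 0.29, 95% confidence interval 0.16 to 1.40), or 1.71-fold, with an adjusted p of 0.188. Without vehicle SP mouse 4 it was 0.40 with an adjusted p of 0.329. The part played in it by the hepatocyte and blood cell markers of that library, given above, was not tested, and in whole liver fewer cells of a type and less RNA per cell cannot be told apart. On HP, Oaz1 was at 90.7, 114.3, 109 and 126.1 scaled TPM with vehicle and at 128.2, 92.9, 76.6 and 141.8 with G108. The lowest of the G108 HP values belonged to mouse 3, the groups overlapped, and the log2 difference was -0.03 (SE 0.29, adjusted p = 0.981). Reads ranged from 2349 to 11991 per library, with 24% of the gene's 31-base sequences shared, nearly all of them with the pseudogene Oaz1-ps.

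Among the 7 members tested, groups did not overlap on SP for 1, Oaz1, and on HP for 0. Of the members below the level for testing, Smox also had groups without overlap on SP. Among the 11839 genes tested, 9.21% did not overlap on SP and 8.15% on HP. By the limma test, 0 of 7 members were called on SP, where 2.72% of all genes tested were called, and 0 of 7 on HP, where 1.22% were. At an unadjusted p under 0.05 there were 2 members on SP, Oaz1 and Odc1, and 0 on HP, where 17.7% and 11.3% of all genes tested had such a p. By limma-voom on reads recovered from the TPM, 0 of 7 were called in either.

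Oaz2 (ENSMUSG00000040652, chr9:65668001-65690300, plus strand), the less abundant antizyme among the members, kept a narrow range. It lay between 6.37 and 8.41 scaled TPM with vehicle on SP and between 6.97 and 7.87 with G108, a log2 difference of 0.01 whose 95% confidence interval ran from -0.17 to 0.20, or from 0.886 to 1.15-fold. On HP the log2 difference was 0.03 (interval -0.15 to 0.22). Azin1 (ENSMUSG00000037458, chr15:38487427-38519266, minus strand), which resembles ornithine decarboxylase but has no activity of its own, was at 8.22 ± 0.736 and 8.10 ± 0.899 scaled TPM with vehicle and G108 on SP. Its log2 difference was -0.02 (interval -0.27 to 0.23) on SP and 0.05 (interval -0.20 to 0.30) on HP. These intervals are on the scale of log2(scaled TPM + 1), which understates the change of genes at a few TPM. An exon of Gm49077 overlaps Azin1 on the opposite strand, and whether counting used strand is not given in the sources used here.

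Amd1 (ENSMUSG00000075232, chr10:40287458-40302186, minus strand) had the smallest p of any member in the HP comparison. With vehicle on HP it was at 7.27, 8.76, 6.57 and 7.30 scaled TPM in mice 1 to 4, and with G108 on HP at 8.77, 7.12, 9.66 and 10.55. Of the 4 G108 HP mice, 3 lay above the whole vehicle group and mouse 2 lay within it. The log2 difference was 0.24 (SE 0.14, 95% confidence interval -0.06 to 0.54) with an adjusted p of 0.598. Without G108 HP mouse 3 the smallest adjusted p of any member on HP was 0.909. On SP the log2 difference of Amd1 was 0.15 (SE 0.14, adjusted p = 0.563), with G108 mice 3 and 4 at 9.70 and 10.7 scaled TPM and mice 1 and 2 at 7.66 and 6.79. Amd1 cannot be separated cleanly from its copy Amd2 (ENSMUSG00000063953, chr10:35708675-35711892, minus strand), with which it shares 81.9% of its 31-base sequences. Amd2 was at 2.29 ± 0.713 and 3.33 ± 0.938 scaled TPM with vehicle and G108 on HP, a log2 difference of 0.40 (SE 0.19, adjusted p = 0.444). G108 HP mouse 3 was at 4.73 scaled TPM for Amd2, and the rest of its group at 2.76 to 2.96. On SP the difference of Amd2 was -0.08 (adjusted p = 0.824).

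The aminopropyl transferases showed no change that passed the test. Srm (ENSMUSG00000006442, chr4:148591503-148594993, plus strand), which makes spermidine, was at 12.2, 11.99, 15.3 and 12.4 scaled TPM with vehicle on SP and at 11.4, 12.7, 12.9 and 15.3 with G108. These groups covered nearly the same range, and the log2 difference was 0.01 (interval -0.27 to 0.28, or 0.832 to 1.21-fold). On HP it was 0.12 (interval -0.15 to 0.39, adjusted p = 0.826). Sms (ENSMUSG00000071708, chrX:157443855-157492287, minus strand), which makes spermine, had 79 to 142 reads per library. Its group means lay between 0.625 and 0.697 scaled TPM, and in a fit with no filter on low values its log2 differences were -0.01 on SP and 0.06 on HP, with adjusted p of 1 and 0.946.

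Of the catabolic members, Sat1 (ENSMUSG00000025283, chrX:155213132-155216449, minus strand) acetylates spermidine and spermine and sets the pace of their breakdown and export. It was at 17.8, 14.8, 15.6 and 16.3 scaled TPM with vehicle on SP and at 17.4, 17.7, 16.9 and 14.98 with G108. Both groups lay within the same 3 units, and the log2 difference was 0.05 (interval -0.27 to 0.37, or 0.831 to 1.29-fold). On HP it was 0.03 (interval -0.29 to 0.35). Smox (ENSMUSG00000027333, chr2:131491496-131525922, plus strand), which oxidises spermine to spermidine, was the least abundant member, with only 28 to 115 reads per library. With vehicle on SP it was at 0.450, 0.416, 0.418 and 0.392 scaled TPM, and with G108 on SP at 0.494, 0.483, 0.572 and 0.840. All G108 SP mice were above all vehicle SP mice, with mouse 4 well above the rest. In the fit with no filter the log2 difference was 0.17 (SE 0.09, adjusted p = 0.540), and with a smaller pseudocount of 0.1 it was 0.40 (adjusted p = 0.572). On HP it was -0.05 (adjusted p = 0.974).

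**Figure D2:**
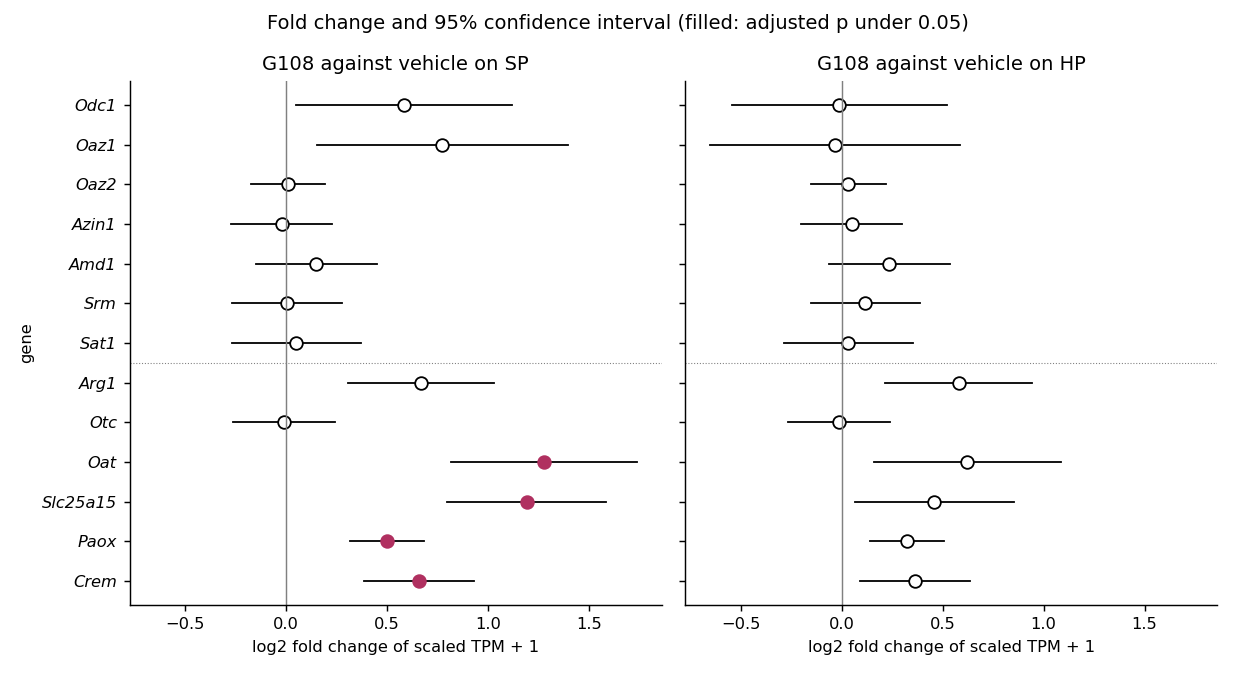
Log2 fold change of scaled TPM + 1 for G108 against vehicle (x axis) with its 95% confidence interval, on SP (left) and HP (right), for the 7 members tested (above the dotted line) and for named genes of the pathway lists (y axis). Filled circles passed an adjusted p of 0.05; these were Oat, Slc25a15, Paox and Crem on SP, and none of the members.

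The diets were compared with and without G108. In HP against SP with vehicle, Odc1 was higher by a log2 difference of 0.42 (SE 0.25) and Oaz1 by 0.52 (SE 0.29), both with an adjusted p of 0.832. Without vehicle SP mouse 4 these differences were 0.19 and 0.14. In HP against SP with G108, Odc1 differed by -0.18 and Oaz1 by -0.29, with adjusted p of 0.878 and 0.858. The other 5 tested members lay between -0.06 and 0.03 with vehicle and between -0.08 and 0.14 with G108. By limma, 0 of 7 members were called in either diet comparison, and 0 had an unadjusted p under 0.05; the share called among all genes was 0% in both, with 466 genes at an unadjusted p under 0.05 with vehicle and 639 with G108.

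The effect of G108 was also compared between the diets by an interaction term. For Oaz1 the effect on HP was lower than that on SP by a log2 difference of -0.81 (SE 0.41, adjusted p = 0.575). For Odc1 it was -0.60 (SE 0.35, adjusted p = 0.575). Without vehicle SP mouse 4 these were -0.43 and -0.37, and without G108 HP mouse 3 as well they were -0.27 and -0.25. The other 5 tested members had interactions between -0.02 and 0.11. Of 7 members, 0 were called by limma and 0 had an unadjusted p under 0.05, among all genes 0% were called, and 854 had an unadjusted p under 0.05.

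Of the genes around ornithine, Oat and Slc25a15 were called on SP. Oat (ornithine aminotransferase, which turns ornithine towards glutamate and proline) was at 505.1, 281.5, 291.1 and 248.1 scaled TPM with vehicle on SP and at 842.3, 865.1, 623.7 and 788.6 with G108. The groups did not overlap, and Oat rose by a log2 difference of 1.28 (SE 0.22), or 2.43-fold, with an adjusted p of 0.00497. When only the compared groups were fitted its adjusted p was 0.0503. Slc25a15, the carrier that brings ornithine into mitochondria, was at 29.02, 22.3, 22.9 and 15.98 scaled TPM with vehicle on SP and at 40.6, 54.3, 53.5 and 60.8 with G108. It rose by 1.19 (SE 0.18), or 2.29-fold, with an adjusted p of 0.00274, again with no overlap. On HP, where vehicle mice stood at 546.3 ± 63.2 and 33.8 ± 3.58 scaled TPM, the differences were 0.62 for Oat and 0.46 for Slc25a15, with adjusted p of 0.235 and 0.323, and the groups did not overlap for either gene. On SP the 4 sinusoidal endothelium markers summed to 16.65 to 19.63 scaled TPM with vehicle and 13.2 to 15.02 with G108, without overlap, and their part in the rises of Oat, Slc25a15, Paox and Crem was not tested. On HP their sums overlapped. Arg1, the arginase that releases ornithine, was at 355.5 ± 95.3 and 554.4 ± 68.3 scaled TPM with vehicle and G108 on SP. Its difference of 0.67 (SE 0.17) had an adjusted p of 0.0501, just short of the threshold, and on HP it was 0.58 (adjusted p = 0.142). Vehicle SP mouse 4 had the lowest Arg1 of its group, at 255.9 scaled TPM. Otc, which returns ornithine to the urea cycle as citrulline, was at 65.5 ± 10.1 and 64.6 ± 4.28 scaled TPM on SP, a difference of -0.01 (interval -0.26 to 0.25).

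Within the list of ornithine supply and competing outlets, 6 of 8 genes were tested, 2 were called higher and 0 lower with G108 on SP, and 0 were called on HP. Among all genes tested 2.72% were called on SP and 1.22% on HP. The median log2 difference of the 6 was 0.47 on SP and 0.30 on HP, where the median of all genes tested was -0.01 and -0.00. The 7 polyamine members had medians of 0.05 and 0.03.

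Other genes around the pathway were taken from fixed lists. Among copies, paralogues and further enzymes of polyamine turnover, 4 of 6 were tested and 1 was called higher on SP, where 2.72% of all genes tested were called. On SP 2 of these 4 had a difference above 0, and the median of the list was 0.18 on SP and 0.12 on HP. The gene called was Paox, the peroxisomal oxidase that acts on acetylated polyamines after Sat1. Paox was at 8.08, 8.13, 7.32 and 6.27 scaled TPM with vehicle on SP and at 12.03, 10.8, 10.8 and 9.98 with G108, a rise of 0.50 (SE 0.09), or 1.41-fold, with an adjusted p of 0.00522, and of 0.0895 with only the compared groups fitted. On HP it was at 8.32 ± 0.394 with vehicle and 10.7 ± 0.475 with G108, a difference of 0.32 (SE 0.09) with an adjusted p of 0.0971, and the groups did not overlap in either diet. Exons of Echs1 overlap Paox on the opposite strand, and Paox shares 33.1% of its 31-base sequences, mostly with Gm19680.

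Among known regulators of Odc1 transcription, 4 of 6 were tested and 1 was called higher on SP, where 2.72% of all genes tested were called. The gene called was Crem, a cAMP-responsive regulator whose locus also gives rise to repressors. It was at 2.81, 2.10, 1.79 and 1.96 scaled TPM with vehicle on SP and at 3.75, 3.26, 4.62 and 4.35 with G108, with no overlap, a rise of 0.66 (SE 0.13, adjusted p = 0.0115). With only the compared groups fitted its adjusted p was 0.0688. On HP the difference was 0.36 (SE 0.13, adjusted p = 0.241). The median of the list was 0.14 on SP and 0.15 on HP. Of the genes for methylthioadenosine salvage and S-adenosylmethionine supply, 8 of 8 were tested and 0 called on either diet, with medians of -0.06 and 0.02. Hypusine formation, which consumes spermidine to modify the translation factor eIF5A, had 3 of 4 genes tested and 0 called, with medians of 0.25 and 0.05. Polyamine transport had 6 of 8 tested and 0 called, with medians of -0.01 and 0.00. At an unadjusted p under 0.05 the salvage list held 3 genes on SP and 0 on HP, the hypusine list 0 and 1, and the transport list 2 and 0. The ornithine list held 4 and 3, the list of copies and further enzymes 3 and 1, and the regulators 1 and 1. Among all genes tested, 17.7% had such a p on SP and 11.3% on HP.

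To compare the routes without any scaling between libraries, TPM ratios of gene pairs were taken within each library and tested by two-sided exact permutation, with 8 tests in all. With 4 mice against 4, the smallest p this test can give is 0.0286. Odc1 was 0.0858, 0.0962, 0.111 and 0.0614 of Otc in the vehicle SP mice and 0.119, 0.125, 0.143 and 0.178 of it in the G108 SP mice. All G108 ratios were above all vehicle ratios, a log2 difference of 0.69 or 1.61-fold, at the smallest exact p of 0.0286 and an adjusted p of 0.229. Vehicle SP mouse 4 had the lowest of these ratios. On HP the difference was -0.00 (exact p = 1). Odc1 against Oat went the other way, with log2 differences of -0.60 on SP (exact p = 0.2, adjusted p = 0.533) and -0.64 on HP (exact p = 0.0857, adjusted p = 0.343), and the groups overlapped in both. Odc1 against its antizyme Oaz1 differed by -0.11 on SP (exact p = 0.6) and 0.02 on HP (exact p = 0.886). Sat1 against Srm, breakdown against synthesis, differed by 0.05 on SP and -0.09 on HP (exact p = 0.743 for both). None of the 8 passed the adjusted threshold, but 1 ratio alone could not have. At the smallest exact p its adjusted p over the 8 tests is 0.229.

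**Figure D3:**
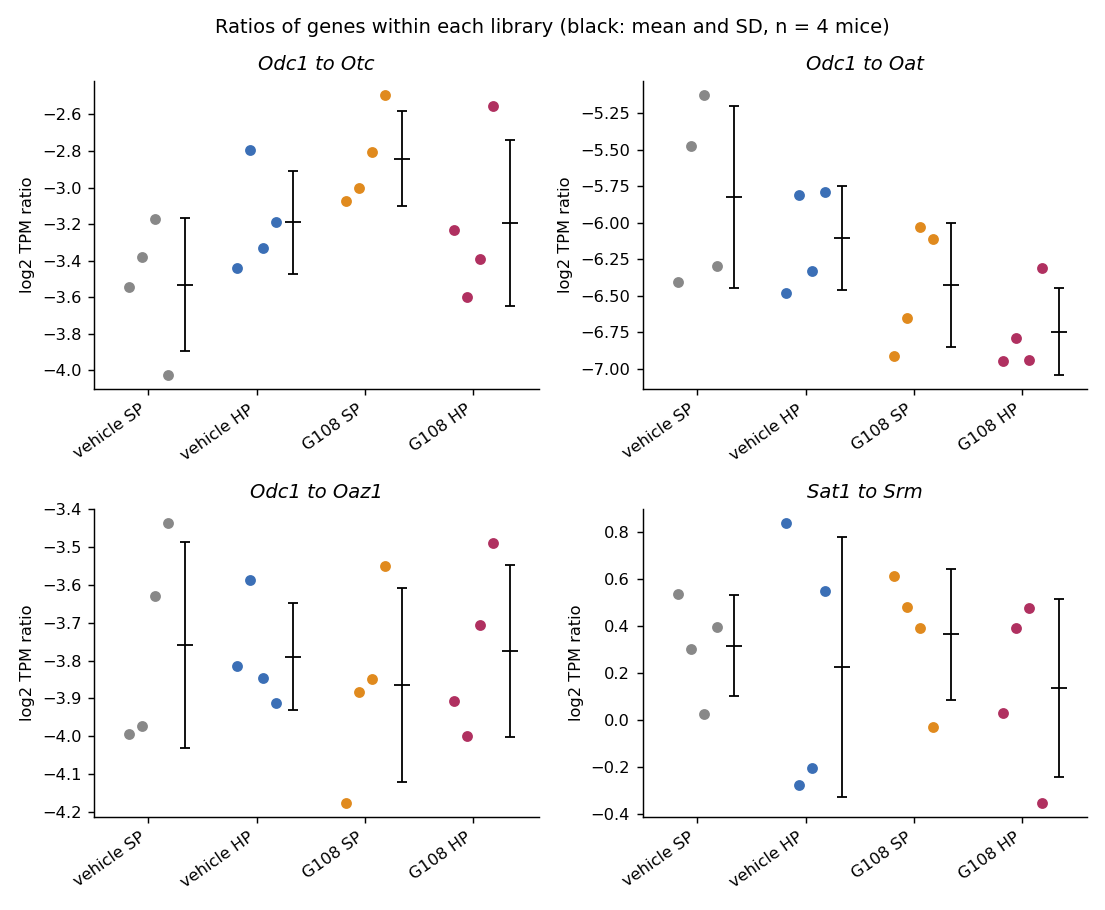
Log2 ratio of TPM within a library (y axis) for 4 gene pairs in the 4 groups (x axis). Each point is 1 mouse and the black mark and bar are mean and SD; only Odc1 to Otc on SP had groups that did not overlap.

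Odc1 and Oaz1 varied together across mice. Their log2(scaled TPM + 1) had r = 0.90 over the 16 libraries, and r = 0.85 after each group's mean was subtracted, the highest of the 21 pairs of tested members and singled out after its value was seen. Depth and composition of a library are common to both of its values, and vehicle SP mouse 4 was the lowest for both genes. By the rule for likeness, the genes that followed Odc1 most closely over the 16 libraries were Tex261 (r = 0.965), Vdac1 (r = 0.954) and Slc25a11 (r = 0.954). For Oaz1 they included Sdhd (r = 0.988) and Tufm (r = 0.975). For Amd1 they were Gm45910 (r = 0.845), Fbxo33 (r = 0.820) and Hsph1 (r = 0.818). Sat1 and Srm had the lowest r of the 21 pairs, at -0.61 over the same libraries. This was not particular to Srm: Sat1 had r = -0.57 with Azin1, -0.47 with Odc1, -0.35 with Amd1, -0.24 with Oaz1 and 0.07 with Oaz2.

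**Figure D4:**
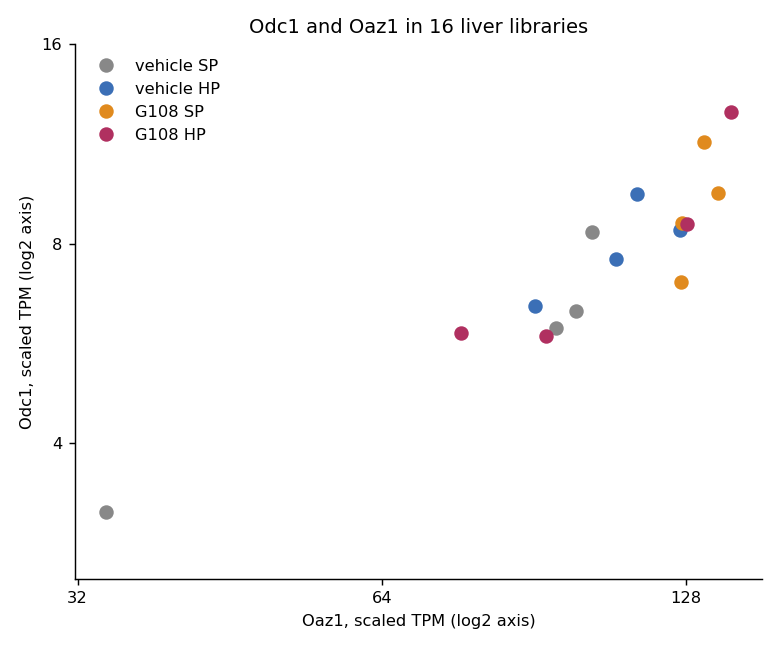
Scaled TPM of Odc1 (y axis) against Oaz1 (x axis), both on log2 axes, with 1 point for each of the 16 libraries, coloured by group. Vehicle SP mouse 4 lies at the lower left at 34.2 for Oaz1 and 3.16 for Odc1, and G108 HP mouse 4 at the upper right at 141.8 and 12.6.

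The promoters of the members were read for the response element of cAMP, the messenger through which glucagon acts. Whether it has a part in the correlations above was not tested. RefSeq promoters of GRCm38.p6, from 250 bases before to 50 after the start, were on hand for 7 of the 9 members, with Azin1 and Srm missing. The full element TGACGTCA was found in 0 of these and in 1.79% of 32851 promoters, on either strand. Its half-site TGACG, which the full element contains, was found in Odc1, Oaz1 and Amd1 and in 20.8% of all promoters. The sites are shown with the half-site in capitals, as read 5′ to 3′ on the gene's own strand, and for Amd1 it is the reverse complement. Distances are from RefSeq starts. The GENCODE gene Odc1, used for its level, begins at 17544794, the first base of the half-site shown, so by that annotation the site is within the gene.
Odc1, 79 bases before the start, chr12:17544784-17544808: cccgccccacTGACGcgcccggccc
Oaz1, 221 bases before the start, chr10:80826425-80826449: tcccacagagTGACGcaaacacgcg
Oaz1, 13 bases before the start, chr10:80826633-80826657: tggcctgccgTGACGacgcatataa
Amd1, 60 bases before the start, chr10:40302234-40302258: ggggcgatggCGTCActtcctggcc
Oat also held 1, at 33 bases after its start. The E-box CACGTG, the letters bound by Myc and Max, was found in 1 member, Sms, at 196 bases before 1 of its 2 starts, and in 7.15% of all promoters. These are matches of letters, with no binding measured.

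Whether the members were called with G108 on SP depended on the scale. In TPM as deposited, without scaling between libraries, all 7 tested members passed as higher under G108 on SP, as did 77.0% of all genes tested, whose median log2 difference was 0.60. On that scale Odc1 went from 4.95 ± 2.31 to 12.7 ± 3.74 TPM and Oaz1 from 69.2 ± 33.4 to 180.7 ± 28.1 TPM, log2 differences of 1.26 and 1.54. Oaz2, Azin1, Amd1, Srm and Sat1 had differences between 0.67 and 0.84, close to the median of all genes. When TPM were instead rescaled without mitochondrial and Mup genes, the median of all genes was 0.04 and 0 of 7 members were called. Of the members, Odc1 and Oaz1 lay furthest above the median of all genes on each of these 3 scales, with the limits given above for vehicle SP mouse 4.

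**Figure D5:**
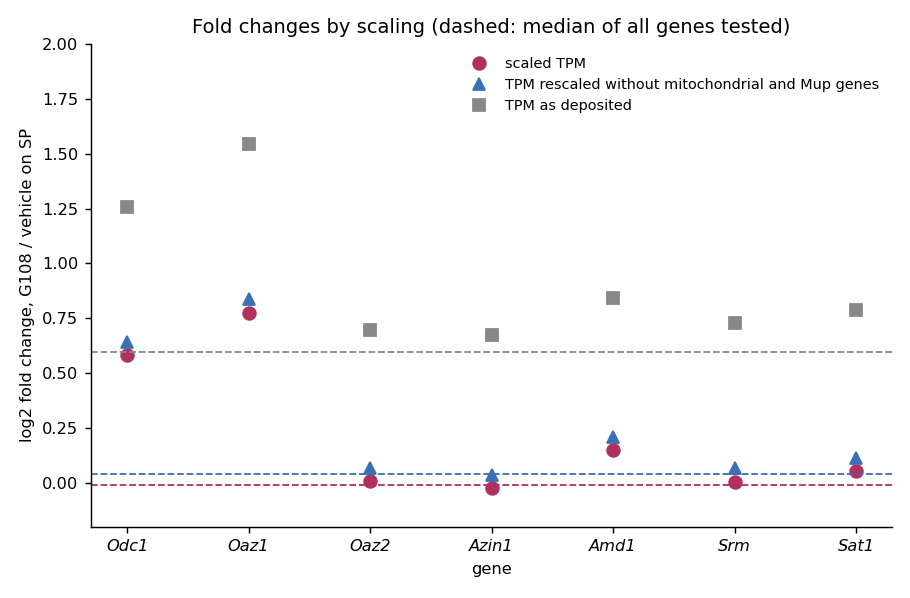
Log2 fold change of G108 against vehicle on SP (y axis) for the 7 tested members (x axis) on 3 scales, with the median of all 11839 genes on each scale as a dashed line. In TPM as deposited (squares) the median is 0.60 and 5 of the members lie near it, between 0.67 and 0.84; Odc1 and Oaz1 lie above the median on each scale.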

How the data were processed

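Per the study's methods, reads were checked with FastQC 0.11.8, aligned to GRCm38 with HISAT2 2.0.5 and counted per gene with featureCounts and the release 102 annotation. The authors deposited TPM computed from counts and exon lengths, in 16 columns. Since low TPM come in multiples of what 1 read is worth, reads were recovered (98.6% of 173033 low values within 0.02 of a whole read). DESeq2, which the authors ran on counts, was not used here.

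TPM were divided by median-of-ratios factors from 11591 genes, the kind of scaling inside the authors' DESeq2 analysis. Genes whose mean TPM reached 1 were fitted as log2(scaled TPM + 1) in limma 3.58.1 (R 4.3.3) with an intensity trend, 4 group means and all 16 libraries. Benjamini-Hochberg adjustment ran over 11839 genes, with calls at an adjusted p under 0.05. The fit was tested on simulated data. Symbols, exon lengths and shared 31-base sequences came from GENCODE M21 (GRCm38), and promoters from RefSeq.

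All 9 members were named, with listed genes called in a G108 contrast (at most 4 per list), Otc, Oat, Arg1, Slc25a15 and Amd2, and for Odc1 and the member with the smallest p in each G108 contrast the 3 tested genes of highest r. Members and lists were chosen with earlier results of these data known. Alternatives were TPM as deposited or rescaled, other pseudocounts and filters, other fits, and left-out libraries. Leaving out vehicle SP mouse 4 with G108 HP mouse 3, and the unfiltered fit with a pseudocount of 0.1, were added after seeing the data. The limma p-values set group differences against the spread between mice, and those of the ratios against differences after permuting the mice. Recovered depth bounds counting error only. A gene that the rule for likeness names is not reported here.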

Additional observations from a re-analysis of the deposited data

Results flagged for a closer look

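In 80 groups of 4 values (16 named genes and 4 ratios in 4 groups), 6 held a mouse far from the other 3, by the gap to the nearest mouse as a share of the group's range. Chance flags about 1 in 20 such groups. Among the members these were Oaz1 with vehicle on SP, where mouse 4 lay at 34.2 scaled TPM and the others at 95.05 to 103.2 (gap 0.882 of the range), Srm with vehicle on SP, where mouse 3 lay at 15.3 above 11.99 to 12.4 (0.884), and Sms with G108 on HP, where mouse 3 lay at 0.964 above 0.578 to 0.640 (0.839). Outside the members they were Oat with vehicle on SP, where mouse 1 lay at 505.1 above 248.1 to 291.1 (0.833), Amd2 with G108 on HP, where mouse 3 lay at 4.73 above 2.76 to 2.96 (0.897), and Paox with G108 on HP, where mouse 3 lay at 9.94 below 10.8 to 10.9 (0.889). G108 HP mouse 3, with the largest mitochondrial share, is the mouse apart in 3 of the 6. Of 16 interactions of G108 and diet, 0 passed an adjusted p of 0.05 by limma.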

How the results depend on the processing

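With G108 on SP, the number of members called moved from 0 of 7 to 7 in TPM as deposited, to 2 (Odc1 and Oaz1) with each library's GC slope as a covariate, to 2 with the replicate block together with the GC slope, and to 1 (Oaz1) with array weights. Of the reversals, which were all in TPM as deposited on SP, Azin1 had a log2 difference of 0.67, Otc 0.76 and Amd2 0.50, where the median of all genes was 0.60. Under the GC slope Oaz1 was at 1.00 (adjusted p = 0.00728) and Odc1 at 0.74 (adjusted p = 0.0313), and with array weights Oaz1 was at 0.46 (adjusted p = 0.0383). Vehicle SP mouse 4 had the highest GC slope of all libraries (0.084). Over the 16 libraries the slope had r = -0.51 with Oaz1 and -0.43 with Odc1. Without that mouse r was -0.002 and -0.05, and no fit with the slope was run without it. The cause of these moves was not tested. In the other 4 comparisons 0 members were called under every alternative run, and on SP 0 were called whichever library was left out. Arg1 on SP passed the threshold in 6 alternatives and with vehicle SP mouse 1 left out (0.83, adjusted p = 0.00688), and fell to 0.52 (adjusted p = 0.113) without mouse 4. Oat, Paox and Crem on SP were no longer called when only the compared groups were fitted (adjusted p of 0.0503, 0.0895 and 0.0688), and Slc25a15 was. With array weights Arg1, Oat, Slc25a15, Paox and Crem were also called on HP. Paox on HP was called without vehicle SP mouse 4 (adjusted p = 0.0316). Counts of all genes called on SP went from 322 to 9185 in TPM as deposited (9113 higher and 72 lower), 1730 with the GC slope, 1618 with the block and GC slope, 1821 with array weights and 103 with only the compared groups, and from 158 (without G108 SP mouse 3) to 471 (without G108 SP mouse 1) with a library left out. On HP they went from 145 to 795 with array weights, 52 with only the compared groups, 77 at a mean TPM of at least 5, 43 with no filter, 55 with no filter and a pseudocount of 0.1, 31 with the block and GC slope and 15 without vehicle SP mouse 4 and G108 HP mouse 3, and from 17 (without G108 HP mouse 3) to 210 (without vehicle SP mouse 4) with a library left out. HP against SP with G108 gave 297 with array weights in place of 0, and the remaining comparisons gave at most 2. Leaving out 1 library of the compared groups, the Odc1 to Otc ratio on SP ranged from 0.52 to 0.81 and the Odc1 to Oat ratio from -0.79 to -0.37, and the Odc1 to Oaz1 ratio from -0.21 to 0.00. Of 772 alternative values of genes and ratios, 88 changed sign with neither value called.

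Mouse numbers did not pair the libraries: same-numbered pairs had correlations of deviations from -0.57 to 0.53, 8 of 24 over 0.1, and 4 of 16 libraries correlated best with their own number. With the replicate block 0 of 7 members were called in each comparison, Oaz1 on SP was at 0.78 (adjusted p = 0.284), and all genes called on SP and HP numbered 213 and 35. Sms and Smox rest on few reads, 28 to 142 per library, and for them no library was left out.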
